A study of Canis lupus familiaris with 45 samples.

Results

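The genes described here are 4 members of the transforming growth factor beta (TGF-beta) and bone morphogenetic protein (BMP) pathways, TGFB1, LTBP3, TGFBR2 and BMPR1A, measured in the left ventricle of dogs during pacing-induced heart failure. The 4 genes were chosen with earlier results of these data known. A probe set is a group of short array probes for 1 transcript. Every probe set annotated to exactly 1 of these symbols was taken, without regard to how it moved. This gave 5 probe sets of 23836 on the array, and 4 genes of 6540 named by a single symbol. TGFBR2 had 2 probe sets, 1584292_at and 1584308_at, and the others had 1 each: 1582451_at for TGFB1, 1605814_at for LTBP3 and 1586875_at for BMPR1A. On the dog assembly UU_Cfam_GSD_1.0, TGFB1 lies on chromosome 1 (113413527 to 113429277), LTBP3 on chromosome 18 (52151640 to 52169092), TGFBR2 on chromosome 23 (14144194 to 14234152) and BMPR1A on chromosome 4 (35397828 to 35459419). The part of each transcript that the probes match was not determined.

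TGF-beta is secreted as a latent complex that is tethered to the extracellular matrix and has to be released before it can bind its receptors. Released ligand binds the type II receptor, which activates a type I receptor, and the type I receptor phosphorylates SMAD proteins that enter the nucleus and regulate transcription. BMPs, relatives of TGF-beta, signal through their own receptor pairs and another set of SMADs. In the heart, TGF-beta is best known for driving fibroblasts to make collagen and other matrix proteins.

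All dogs were male and age-matched, and the age was not given. Day-0 dogs were not paced. In 4 further groups the right ventricle was paced at 240 pulses per minute through an epicardial lead, for the time in the group's name (Day-3, Week-1, Week-2) or for 3 to 4 weeks (End-stage). Whether the Day-0 dogs carried a pacemaker was not given. Each group had 3 dogs, each dog gave transmural left ventricular tissue, and RNA was isolated 3 times from each tissue, which made 45 arrays of 15 dogs. The dog was the replicate throughout, and values are log2 signals averaged over its 3 arrays.

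The tissue label was checked against 10 cardiomyocyte markers, all tested. MYH7, the slow myosin heavy chain, had a geometric mean signal of 11642 over all arrays, where the median signal per array was 33.3 to 48.6. The ratio of 3-prime to 5-prime GAPDH signal, a sign of RNA quality, averaged 0.965, 0.945, 0.945, 0.932 and 0.957 in the Day-0, Day-3, Week-1, Week-2 and End-stage dogs. Of the 45 arrays, 38 were closest to another array of their own dog. Of the other 7, the 3 arrays of Week-1 dog 1 were closest to End-stage dog 1 (2 arrays) and Week-2 dog 1 (1 array). A single array each of End-stage dog 1, Day-3 dog 1, Week-2 dog 1 and Week-2 dog 2 was closest to Week-2 dog 1, Week-1 dog 1, Week-1 dog 1 and End-stage dog 2, in that order. Each of these 7 arrays was thus closest to a dog of the same number in another group. The labels do not say what dogs of the same number share. The differences of the 4 members from Day-0 that use Week-1 dog 1 or End-stage dog 1 are also given without both; this pair was chosen from an earlier analysis of these data.

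None of the 5 probe sets passed an adjusted p of 0.05 in any comparison of a paced group with Day-0, although all 5 were bright enough to be tested. Whole tissue was measured, so that fewer cells of a type and less RNA per cell cannot be told apart in any of these values. The share of all 14302 tested probe sets that passed in either direction, by limma with Benjamini-Hochberg adjustment, was 0% at Day-3, 0.028% at Week-1, 0.0839% at Week-2, 0.014% at End-stage and 0.301% for the mean of the 4 paced groups. At an unadjusted p under 0.05, 0 of the 5 probe sets passed at Day-3, Week-1 and End-stage, 2 passed at Week-2 (TGFBR2 1584292_at higher and BMPR1A lower), and 1 passed for the mean of the paced groups (TGFBR2 1584292_at higher). Of all probe sets, 8.07% passed at Day-3, 9% at Week-1, 11.2% at Week-2, 8.23% at End-stage and 11.7% for the mean of the paced groups. With simulated differences added to dogs of this spread, the Week-2 comparison recovered 0% of probe sets at a log2 difference of 0.5 and 55.5% at 1. The typical SE of a difference between groups was 0.22, and the largest difference of a member from Day-0 was 0.68.

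**Figure D1:**
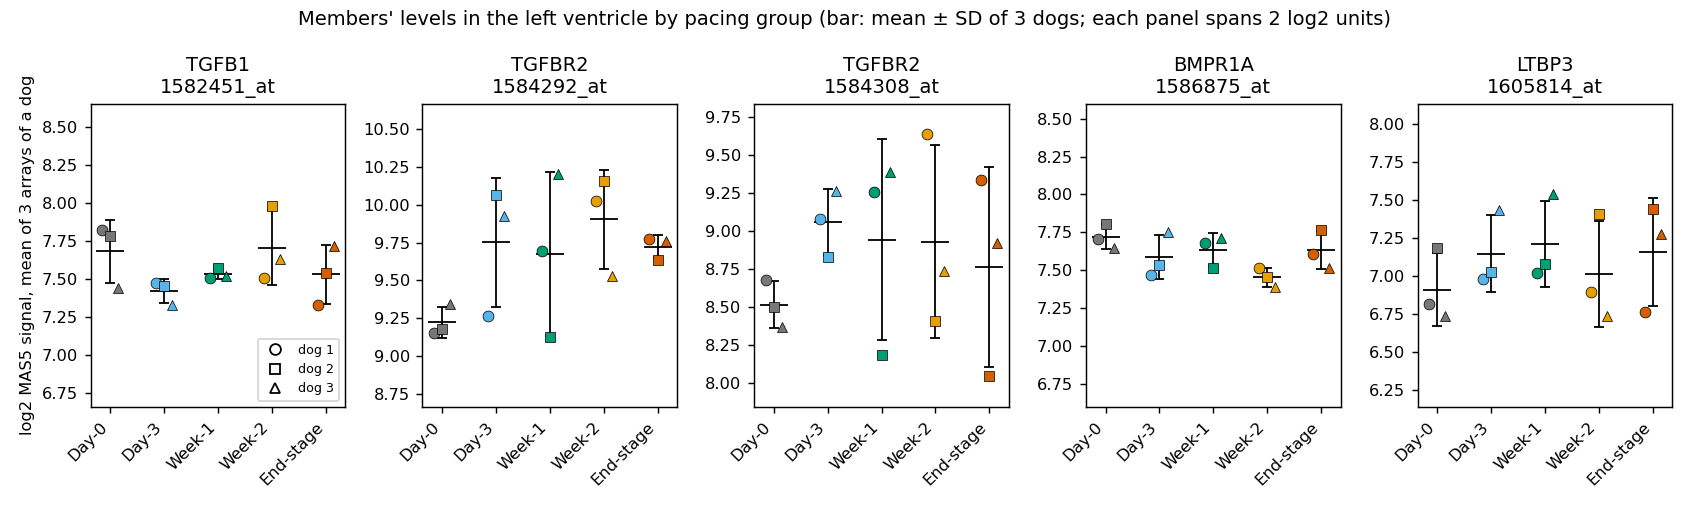
Log2 MAS5 signal of the 5 probe sets (y axis, each panel spanning the same number of log2 units) in Day-0, Day-3, Week-1, Week-2 and End-stage dogs (x axis). Each point is the mean of the 3 arrays of 1 dog, its shape gives the dog number, and the bar is the group mean ± SD of 3 dogs. TGFBR2 1584292_at has its lowest group mean in Day-0, 9.22, and BMPR1A its highest there, 7.72.

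TGFB1 encodes the TGF-beta 1 ligand. Its log2 signal was 7.82, 7.79 and 7.44 in the Day-0 dogs, 7.48, 7.45 and 7.33 in the 3 Day-3 dogs, 7.50, 7.57 and 7.52 in the Week-1 dogs, 7.51, 7.98 and 7.63 in the Week-2 dogs and 7.33, 7.54 and 7.72 in the End-stage dogs. Every paced group overlapped Day-0, and the highest value belonged to Week-2 dog 2. The 12 paced dogs differed from Day-0 by a mean of -0.14 on the log2 scale (SE 0.12, 95% confidence interval -0.39 to 0.12, limma adjusted p = 0.761), with 1 paced dog above and 2 below all Day-0 dogs. The difference was -0.26 at Day-3 (SE 0.15, adjusted p = 0.721), -0.15 at Week-1 (adjusted p = 0.850), 0.02 at Week-2 (adjusted p = 0.975) and -0.15 at End-stage (adjusted p = 0.893). The Week-2 difference was negative, -0.11, without Week-2 dog 2 and also negative, -0.10, without Day-0 dog 3. Without Week-1 dog 1 and End-stage dog 1 the differences were -0.14 at Week-1 (adjusted p = 0.914), -0.05 at End-stage (adjusted p = 0.970) and -0.11 for the paced mean (adjusted p = 0.850). In linear terms the interval of the paced mean ran from 0.763 to 1.08 times the Day-0 signal.

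LTBP3, latent TGF-beta binding protein 3, binds the latent ligand complex and helps to secrete it and to attach it to the matrix. Its log2 signal was 6.81, 7.18 and 6.73 in Day-0 dogs, 6.98, 7.03 and 7.44 in Day-3 dogs, 7.02, 7.08 and 7.54 in Week-1 dogs, 6.90, 7.41 and 6.74 in Week-2 dogs and 6.76, 7.44 and 7.27 in End-stage dogs. At least 1 dog of each paced group lay above all Day-0 dogs, 5 of 12 in all, and none lay below them. The mean difference of the paced dogs from Day-0 was 0.22 (SE 0.18, 95% confidence interval -0.16 to 0.61, adjusted p = 0.733), or 1.17-fold. By group it was 0.24 at Day-3 (adjusted p = 0.895), 0.30 at Week-1 (adjusted p = 0.779), 0.10 at Week-2 (adjusted p = 0.921) and 0.25 at End-stage (SE 0.23, adjusted p = 0.881). Without Week-1 dog 1 and End-stage dog 1 the differences were 0.40 at Week-1 (adjusted p = 0.732), 0.45 at End-stage (adjusted p = 0.693) and 0.30 for the paced mean (adjusted p = 0.592). The Week-2 difference was -0.09 without Week-2 dog 2, the highest dog of its group.

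TGFBR2 is the type II receptor that binds TGF-beta. On the probe set 1584292_at its log2 signal was 9.15, 9.18 and 9.34 in Day-0 dogs, 9.27, 10.06 and 9.92 in Day-3 dogs, 9.69, 9.13 and 10.20 in Week-1 dogs, 10.02, 10.15 and 9.53 in Week-2 dogs and 9.77, 9.64 and 9.76 in End-stage dogs. Of the 12 paced dogs, 10 lay above all 3 Day-0 dogs; the exceptions were Day-3 dog 1, which lay inside the Day-0 range, and Week-1 dog 2, which lay below it. All 3 dogs of Week-2 and of End-stage lay above all Day-0 dogs. Of all probe sets tested, 17.3% had no overlap with Day-0 at Week-2 and 14.3% at End-stage, in either direction, and the shares were 12.6% at Day-3 and 16.1% at Week-1.

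The mean of the paced dogs on 1584292_at was 0.54 above Day-0 (SE 0.20, 95% confidence interval 0.12 to 0.96, unadjusted p = 0.0150, adjusted p = 0.267), or 1.45-fold with bounds of 1.09 and 1.94. The difference was 0.53 at Day-3 (adjusted p = 0.619), 0.45 at Week-1 (adjusted p = 0.646), 0.68 at Week-2 (SE 0.25, unadjusted p = 0.0154, adjusted p = 0.317) and 0.50 at End-stage (adjusted p = 0.646). Without Week-1 dog 1 and End-stage dog 1 the mean of the paced dogs stood 0.53 above Day-0 (adjusted p = 0.380), Week-1 0.44 (adjusted p = 0.773) and End-stage 0.47 (adjusted p = 0.762). Over all alternatives the difference of the paced mean lay between 0.47 and 0.61, and that of Week-2 between 0.55 and 0.86. Single dogs moved the earlier groups more: the Week-1 difference was 0.19 without Week-1 dog 3 and 0.72 without Week-1 dog 2, and the Day-3 difference was 0.37 without Day-3 dog 2 and 0.77 without Day-3 dog 1. In 1 alternative, which fitted every array on its own and treated those of a dog as correlated, the adjusted p was 0.00916 at Week-2 and 0.00645 for the paced mean. That fit applied to every probe set the same correlation between isolations of a dog, 0.292, while the correlation estimated for 1584292_at itself was 0.825.

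The other TGFBR2 probe set, 1584308_at, had 8.67, 8.50 and 8.37 in Day-0 dogs, 9.08, 8.83 and 9.26 in Day-3 dogs, 9.26, 8.18 and 9.39 in Week-1 dogs, 9.64, 8.41 and 8.74 in Week-2 dogs and 9.33, 8.04 and 8.92 in End-stage dogs. The 3 Day-3 dogs all lay above Day-0. In Week-1, Week-2 and End-stage 2 dogs lay above all Day-0 dogs and dog 2 lay within or below their range. The differences from Day-0 were 0.54 at Day-3 (SE 0.36, adjusted p = 0.799), 0.43 at Week-1 (adjusted p = 0.805), 0.41 at Week-2 (adjusted p = 0.742) and 0.25 at End-stage (adjusted p = 0.937). The paced mean was 0.41 above Day-0 (SE 0.29, 95% confidence interval -0.20 to 1.02, adjusted p = 0.672). Without Week-1 dog 1 and End-stage dog 1 it was 0.30 (adjusted p = 0.795), the Week-1 difference was 0.27 and the End-stage difference was -0.03. The Week-2 difference was 0.06 without Week-2 dog 1 and 0.67 without Week-2 dog 2, and the Week-1 difference was 0.21 without Week-1 dog 3 and 0.81 without Week-1 dog 2.

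Both TGFBR2 probe sets thus had positive mean differences in all 4 paced groups with all 15 dogs, and neither passed the threshold. They did not rank the dogs alike. Their Pearson r over the 15 dogs was 0.49, and 0.39 after group means were subtracted. Week-2 dog 2 was the highest dog of its group on 1584292_at and the lowest on 1584308_at. On 1584308_at its arrays had 8.71, 8.88 and a single low 7.64, while Week-2 dog 3 had a mean of 8.74. A low dog 2 on this probe set was not confined to Week-2. In each paced group dog 2 was the lowest, at 8.83 in Day-3, 8.18 in Week-1 and 8.04 in End-stage. In Week-1 and End-stage the arrays of dog 2 lay close together (SD 0.03 and 0.12). End-stage dogs lay within 0.14 log2 units of each other on 1584292_at (SD 0.07) and had an SD of 0.66 on 1584308_at.

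**Figure D2:**
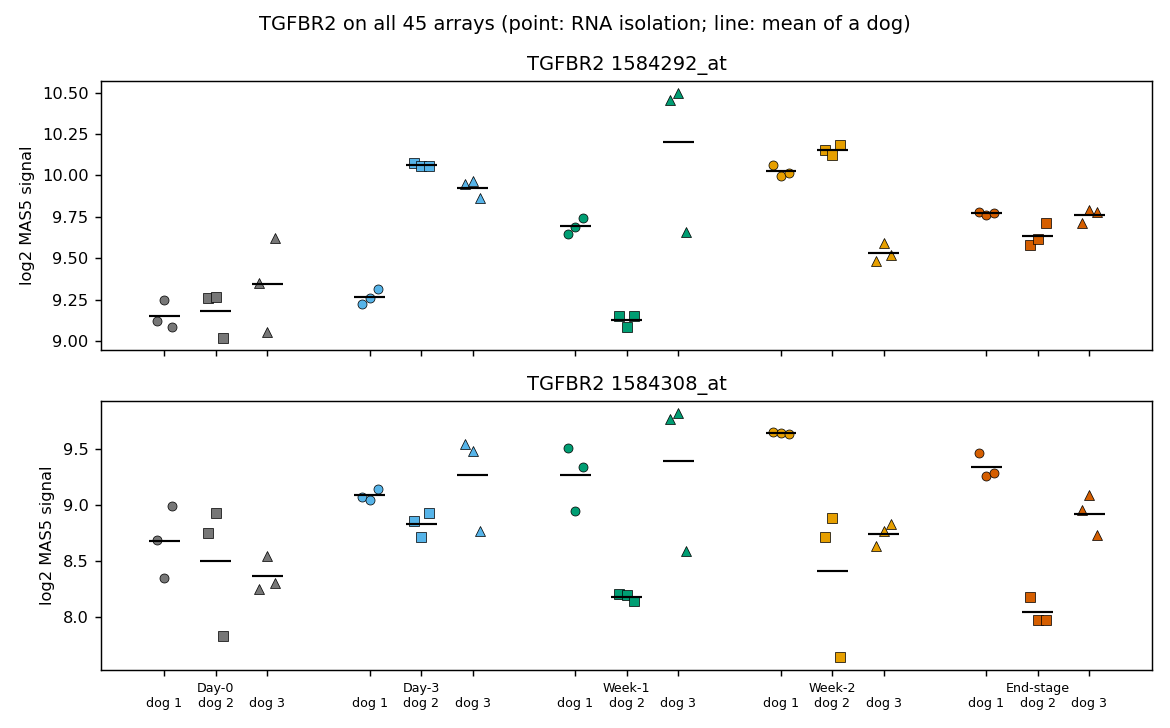
Log2 MAS5 signal of the 2 TGFBR2 probe sets (y axes) on all 45 arrays, ordered by group and dog (x axis). Each point is 1 RNA isolation and each line the mean of a dog. On 1584292_at the arrays of most dogs lie close to their mean (SD between isolations 0.15), with Week-1 dog 3 spread from 9.66 to 10.50, while 1584308_at is wider (SD 0.34) and has single low arrays in Day-0 dog 2 (7.83) and Week-2 dog 2 (7.64).

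BMPR1A is a type I receptor for BMPs, also called ALK3. Its log2 signal was 7.71, 7.81 and 7.65 in Day-0 dogs, 7.47, 7.54 and 7.75 in Day-3 dogs, 7.68, 7.51 and 7.72 in Week-1 dogs, 7.51, 7.46 and 7.39 in Week-2 dogs and 7.61, 7.77 and 7.52 in End-stage dogs. All 3 Week-2 dogs lay below all Day-0 dogs, as did 8 of the 12 paced dogs. No paced dog lay above all 3 Day-0 dogs. The Week-2 difference was -0.27 (SE 0.12, 95% confidence interval -0.52 to -0.01, unadjusted p = 0.0409, adjusted p = 0.420), or 0.831 times the Day-0 signal. It kept its sign under all alternatives, between -0.35 and -0.17. The other differences were -0.13 at Day-3 (adjusted p = 0.883), -0.08 at Week-1 (adjusted p = 0.906) and -0.09 at End-stage (adjusted p = 0.929), and that of the paced mean was -0.14 (SE 0.09, adjusted p = 0.642). Without Week-1 dog 1 and End-stage dog 1 they were -0.11 at Week-1 (adjusted p = 0.927), -0.08 at End-stage (adjusted p = 0.946) and -0.15 for the paced mean (adjusted p = 0.703). In Week-2 this receptor and TGFBR2 1584292_at were the 2 of 5 probe sets that did not overlap Day-0, in opposite directions, against 17.3% of all probe sets.

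**Figure D3:**
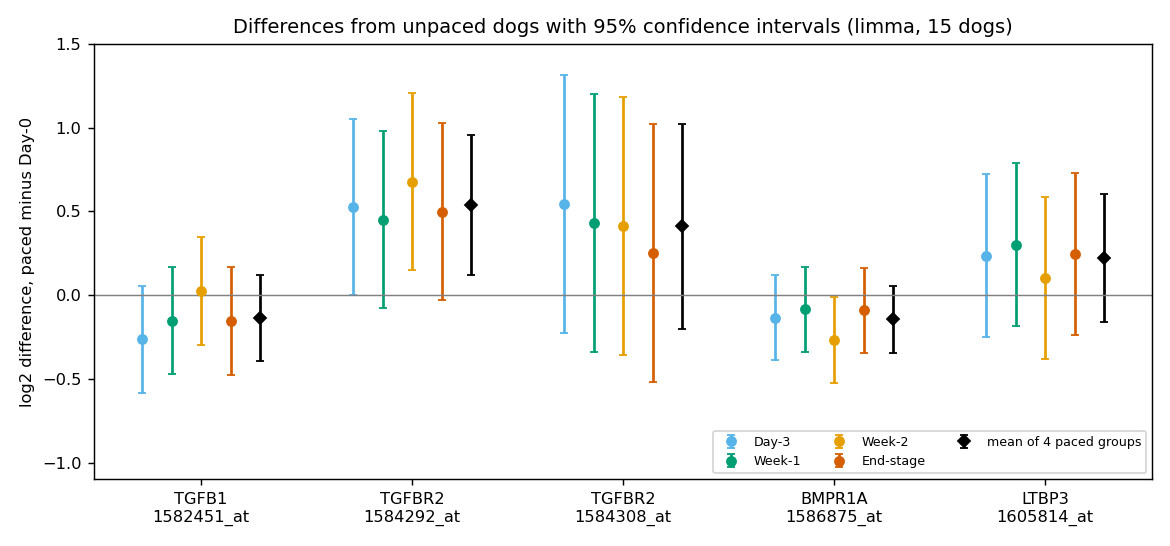
Difference of each paced group, and of the mean of the 4 paced groups, from Day-0 in log2 signal (y axis) for the 5 probe sets (x axis), from the limma fit to 15 dogs; bars are 95% confidence intervals. The intervals of TGFBR2 1584292_at for Week-2 and for the paced mean and that of BMPR1A for Week-2 do not include 0, and none of these passed after adjustment.

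Consecutive paced groups were compared to ask when during pacing a member moved. No probe set passed for Week-1 minus Day-3, Week-2 minus Week-1 or End-stage minus Week-2, where the share of all probe sets past the adjusted threshold was 0% in each and the share past an unadjusted p of 0.05 was 4.82%, 5.78% and 4.2%. The smallest adjusted p of a member was 0.885, for BMPR1A at Week-2, which was 0.18 below Week-1. The dogs of these groups did not overlap, but the highest Week-2 dog and the lowest Week-1 dog both rounded to 7.51. BMPR1A was 0.18 higher in End-stage than in Week-2, and TGFB1 0.11 higher in Week-1 than in Day-3, also without overlap. These gaps were narrow too. For BMPR1A the lowest End-stage dog had 7.52 and the highest Week-2 dog 7.51. For TGFB1 the lowest Week-1 dog had 7.50 and the highest Day-3 dog 7.48. In each of these comparisons 1 of the 5 probe sets had no overlap. Of all probe sets, 11.2% did not overlap for Week-2 against Week-1, 9.28% for End-stage against Week-2 and 9.31% for Week-1 against Day-3. A test for any difference among the 5 groups gave adjusted p values of 0.894 for TGFB1, 0.969 for LTBP3, 0.803 and 0.961 for TGFBR2 and 0.884 for BMPR1A. By that test 0% of all probe sets passed after adjustment and 7.37% at an unadjusted p under 0.05.

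The order of group means differed between members. From high to low it ran Week-2, Day-0, Week-1, End-stage, Day-3 for TGFB1 and Week-1, End-stage, Day-3, Week-2, Day-0 for LTBP3. For TGFBR2 it ran Week-2, Day-3, End-stage, Week-1, Day-0 on 1584292_at and Day-3, Week-1, Week-2, End-stage, Day-0 on 1584308_at. For BMPR1A it ran Day-0, Week-1, End-stage, Day-3, Week-2. Neighbours in each of these orders overlapped in their dogs. Day-0 came last for LTBP3 and both TGFBR2 probe sets and first for BMPR1A.

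The spread behind these values had different sources in different members. For TGFB1 and BMPR1A the SD between RNA isolations of a dog, 0.23 and 0.16, exceeded the SD between dogs of a group, 0.11 and 0.06. Over all tested probe sets the medians were 0.31 between isolations and 0.17 between dogs. TGFBR2 and LTBP3 differed more between dogs than between isolations: the SD between dogs was 0.33 for 1584292_at, 0.48 for 1584308_at and 0.28 for LTBP3, against 0.15, 0.34 and 0.21 between isolations. The correlation between isolations of a dog was 0.825 for 1584292_at, 0.664 for 1584308_at and 0.644 for LTBP3, and 0.202 for TGFB1 and 0.114 for BMPR1A.

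Members were next compared over the 15 dogs, which share the array platform, the scaling and the 5 groups. LTBP3 and TGFBR2 1584292_at had a Pearson r of 0.46, LTBP3 and BMPR1A of 0.35 and TGFB1 and LTBP3 of 0.18. The last of these was 0.52 after group means were subtracted, and that of LTBP3 and BMPR1A was then 0.58. TGFB1 had an r of -0.14 with TGFBR2 1584292_at and of -0.44 with 1584308_at, and of -0.05 and -0.41 after group means were subtracted.

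The genes whose signal was most like a member's over the 15 dogs were taken among 7673 probe sets with 1 symbol. For TGFBR2 1584292_at they were TMBIM6 (r = 0.90), GLIPR2 (0.89), the small matrix proteoglycan ASPN (0.88), MEDAG (0.88) and the metallothionein MT2A (0.86), and the lowest were RCL1 (-0.87), ETFRF1 (-0.82) and NDUFV1, a subunit of mitochondrial complex I (-0.82). For LTBP3 they were PPIB, a prolyl isomerase of the endoplasmic reticulum (0.84), LOC607874 (0.84), PDLIM2 (0.84), ERGIC3 (0.82) and PGD (0.82), with FADS1 (-0.86), the splicing regulator RBM20 (-0.84) and the transcription factor MITF (-0.84) lowest. For TGFB1 they were SAP30BP (0.75), DUSP11 (0.75), CLCC1 (0.74), the collagen-binding integrin subunit ITGA11 (0.74) and SNCAIP (0.73), with MTF1 (-0.84), DYNC1LI2 (-0.80) and ARHGEF12 (-0.79) lowest. For BMPR1A they were NCAPG (0.88), EXOC6 (0.83), FAIM (0.81), CPNE1 (0.81) and SCD (0.80), with RHBG (-0.83), P4HA1 (-0.82) and CMBL (-0.80) lowest. After group means were subtracted, r of the highest gene was 0.87 for TGFBR2 1584292_at (TMBIM6) and 0.90 for LTBP3 (PPIB). It was 0.64 for TGFB1 (SAP30BP) and 0.92 for BMPR1A (NCAPG). These values come from the same dogs in which the genes were picked, so they are no separate support. The median r over all 7673 probe sets lay between -0.03 and 0.01 for the 4 members. The named genes are the extremes of 7673 values of r over only 15 dogs. Such extremes can be large through selection alone, and whether any exceeds that was not tested.

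Marker levels of 6 cell types were set beside the members over the 15 dogs, in 30 relations with permutation p values adjusted over the 30. The permutations treated all 15 dogs as interchangeable and did not allow for dogs of different groups that share a number. LTBP3 correlated with the mean of 6 fibroblast markers, COL1A1, COL1A2, COL3A1, DCN, DPT and MFAP5, at a Pearson r of 0.775 (permutation p = 0.00083, adjusted 0.0249) and a Spearman rho of 0.746 (adjusted permutation p = 0.0419). The r was 0.663 without the 2 dogs farthest from the median of the marker level, 0.761 after group means were subtracted and 0.765 without Week-1 dog 1 and End-stage dog 1. In every group LTBP3 was higher in dog 2 than in dog 1, a pattern by dog number that the permutation p values do not allow for. The fibroblast marker level did not follow it in Day-3 (10.21 in dog 1, 9.94 in dog 2) and Week-2 (10.63 and 10.38). The summed signal of these 6 markers and of POSTN ranged over dogs from 7909 to 11375 in Day-0, 8680 to 13670 in Day-3, 8281 to 13956 in Week-1, 8438 to 10878 in Week-2 and 7891 to 11936 in End-stage. None of the 6 passed the adjusted threshold in any paced group, and POSTN, a marker of activated fibroblasts, had a geometric mean signal of only 2.02 and was not tested. With 7 macrophage markers LTBP3 had an r of 0.537 (adjusted permutation p = 0.185). The part of fibroblast or macrophage content in the level of LTBP3 was not tested.

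**Figure D4:**
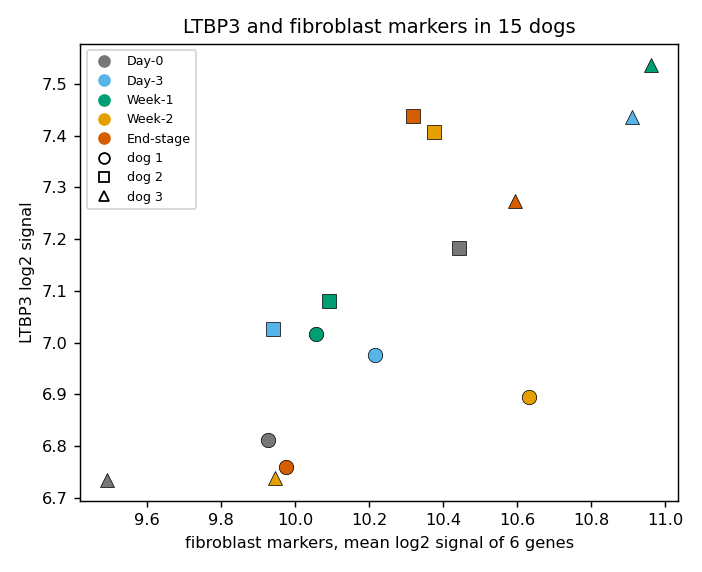
Log2 MAS5 signal of LTBP3 (y axis) against the mean log2 signal of 6 fibroblast markers (x axis) in 15 dogs; colour gives the group and shape the dog number. LTBP3 is high where the markers are high (r = 0.775). Dogs of 1 group can lie apart, as Week-1 dog 3 is higher on both axes than Week-1 dogs 1 and 2, which lie close together.

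The 2 TGFBR2 probe sets stood differently to the markers. 1584308_at had an r of -0.691 with 10 cardiomyocyte markers (adjusted permutation p = 0.0855; rho -0.711, adjusted permutation p = 0.0419) and of 0.638 with 7 macrophage markers (adjusted permutation p = 0.108; rho 0.718, adjusted permutation p = 0.0419). By r these 2 relations did not pass the threshold and by rho they did. In every group dog 1 had the lowest mean log2 level of the cardiomyocyte markers, 12.64 to 12.78. In every group dog 1 was also higher than dog 2 on 1584308_at. The permutation p values do not allow for such a pattern by dog number, so the pass by rho cannot be relied on. 1584292_at had an r of -0.231 with the cardiomyocyte markers, 0.540 with the macrophage markers and 0.513 with the fibroblast markers, with adjusted permutation p values of 0.780, 0.185 and 0.191. The summed macrophage signal was 529 to 686 in Day-0 dogs, 584 to 1012 in Day-3, 516 to 971 in Week-1, 599 to 782 in Week-2 and 606 to 782 in End-stage dogs, and 0 of its 7 markers passed the threshold. Whether macrophage or cardiomyocyte content accounts for the TGFBR2 values was not tested. Neither TGFB1 nor BMPR1A passed the adjusted threshold with any of the 6 marker lists.

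The members were then read against the rest of the pathway, in lists by role chosen with earlier results of these data known. Together the lists held 117 genes. Of these, 55 were named on the array and 45 were tested, each on its brightest probe set. Only 2 passed the adjusted threshold in any comparison with Day-0, both as rises: THBS1 and LOXL2. The median difference of the 41 tested genes other than the 4 members was 0.07 at Day-3, 0.03 at Week-1, 0.12 at Week-2 and 0.12 at End-stage, where the median of all tested probe sets lay between -0.03 and 0.00.

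Ligands other than TGFB1 did not pass. BMP6 was 0.51 higher in Week-2 than in Day-0 (SE 0.18, adjusted p = 0.310), with all 3 Week-2 dogs (8.46, 8.23 and 8.16) above the Day-0 dogs (7.63, 7.64 and 8.04). BMP5 was -0.63 different at Week-2 (adjusted p = 0.461) and BMP2 0.12 (adjusted p = 0.921). Of the 4 tested ligands 0 rose and 0 fell in any paced group.

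Among 11 genes of latency and activation, THBS1, thrombospondin 1, a matrix protein that can release active TGF-beta, rose at Week-2. Its log2 signal was 10.27, 10.13 and 10.21 in Week-2 dogs and 8.14, 8.79 and 8.34 in Day-0 dogs, a difference of 1.78 (SE 0.23, 3.43-fold, adjusted p = 0.0101). It also rose for the paced mean, by 1.17 (SE 0.18, adjusted p = 0.0185). The Week-2 call was lost without Week-2 dog 1 (adjusted p = 0.0561) and without Week-2 dog 2 (adjusted p = 0.0879), and that of the paced mean without each of the 3 Day-0 dogs (adjusted p up to 0.128) and without the intensity trend in the variance model (adjusted p = 0.0626). The alpha-v integrins, which also release latent TGF-beta, had differences for the paced mean of 0.45 for the subunit ITGAV (adjusted p = 0.154), 0.56 for ITGB5 (adjusted p = 0.0515) and -0.97 for ITGB6 (adjusted p = 0.145). ITGB5 came nearest to the threshold at Week-1, with 11.38, 11.21 and 11.33 in Week-1 dogs and 10.52, 10.37 and 10.45 in Day-0 dogs (difference 0.86, adjusted p = 0.0512). ITGB6 was 1.58 lower at Week-2 (difference -1.58, adjusted p = 0.0959), with Week-2 dogs at 6.65, 6.43 and 6.54 and Day-0 dogs at 8.53, 8.11 and 7.71. FBN1, fibrillin 1, the microfibril protein to which latent complexes attach, differed by 0.63 for the paced mean (adjusted p = 0.327).

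No receptor or co-receptor passed, of 8 tested. HJV, hemojuvelin, a BMP co-receptor, had all 12 paced dogs below all Day-0 dogs, and the paced mean differed from Day-0 by -0.58 (SE 0.18, adjusted p = 0.188). Of all probe sets tested, 2.52% had the 12 paced dogs all on 1 side of the Day-0 dogs. The HJV values were 8.58, 8.58 and 8.34 in Day-0 dogs, 8.21, 7.29 and 8.02 in Day-3, 8.25, 8.04 and 7.73 in Week-1, 7.94, 7.70 and 8.10 in Week-2 and 8.31, 7.55 and 7.88 in End-stage dogs. The differences of the paced mean were -0.23 for the type I receptor ACVRL1 (adjusted p = 0.764), -0.11 for the type II receptor ACVR2A (adjusted p = 0.791) and 0.12 for the co-receptor endoglin, ENG (adjusted p = 0.889). Among 3 tested SMADs and nuclear partners the paced means differed by -0.01 for SMAD2, which carries TGF-beta signals, -0.18 for SMAD5, which carries BMP signals, and -0.06 for the coactivator CREBBP (adjusted p = 0.990, 0.902 and 0.906). Among 4 inhibitors they differed by 0.63 for PMEPA1 (adjusted p = 0.574), 0.08 for follistatin, FST, -0.07 for decorin, DCN, and 0.07 for the ubiquitin ligase SMURF2 (adjusted p = 0.911, 0.941 and 0.931).

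Of 15 tested genes known as targets of TGF-beta, 14 had a positive difference from Day-0 at Day-3 and Week-2, 12 at Week-1 and End-stage and 13 for the paced mean. Of all probe sets, 50.8% had a positive difference at Day-3, 45.4% at Week-1, 49.2% at Week-2, 45.7% at End-stage and 47.2% for the paced mean. The list was chosen with earlier results of these data known, and all paced groups share the same Day-0 dogs. These counts are therefore no separate support for a rise of the targets. The median difference of the 15 genes was 0.55 at Day-3, 0.48 at Week-1, 0.57 at Week-2 and 0.57 at End-stage. THBS1 passed at Week-2, and THBS1 and LOXL2 for the paced mean. LOXL2, which cross-links collagen, had 7.43, 7.62 and 6.88 in Day-0 dogs, 8.28, 7.90 and 7.90 in Day-3, 8.13, 7.95 and 7.78 in Week-1, 7.98 to 8.21 in Week-2 and 8.13, 8.10 and 8.21 in End-stage dogs. All 12 paced dogs lay above all Day-0 dogs, and the mean difference was 0.73 (SE 0.14, 1.66-fold, adjusted p = 0.0440). This call was lost when any dog other than Day-3 dog 1 was left out, 14 of 15, with adjusted p up to 0.241, and in 6 of 12 other alternatives.

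CCN2, connective tissue growth factor, had larger differences, 1.22 at Day-3, 1.47 at Week-1, 2.30 at Week-2 and 1.79 at End-stage, and did not pass (paced mean 1.69, SE 0.40, adjusted p = 0.0792). Its dogs had 10.65, 11.48 and 12.30 in Week-2, against 9.12, 9.03 and 9.37 in Day-0. TIMP1, an inhibitor of matrix proteases, had all 12 paced dogs above all Day-0 dogs, with a mean difference of 0.57 (adjusted p = 0.146), as 2.52% of all probe sets lay on 1 side. The proteoglycan BGN differed by 1.15 (adjusted p = 0.296) and JUNB by 0.53 (adjusted p = 0.520). Single dogs weighed on both. The Day-0 dogs had 3.07, 5.07 and 5.82 for BGN, and the Week-2 dogs 10.25, 8.28 and 8.63 for JUNB. JUNB differed by 1.33 at Week-2 and by 0.26, 0.19 and 0.34 at Day-3, Week-1 and End-stage. The list shares COL1A1, COL1A2 and COL3A1 with the fibroblast markers above, whose median difference was 0.51, 0.46, 0.30 and 0.22 at Day-3, Week-1, Week-2 and End-stage, and the part of fibroblast content in these differences was not tested. It also holds ACTA2 and TAGLN, which are markers of smooth muscle and are named here after their values were seen. ACTA2 differed by -0.49 at End-stage (adjusted p = 0.504), with all 3 End-stage dogs below Day-0, and TAGLN by -0.20 (adjusted p = 0.891). The summed signal of 5 smooth muscle and pericyte markers was 6369 to 8239 in Day-0 dogs, 5723 to 7895 in Day-3, 5985 to 8288 in Week-1, 5832 to 6454 in Week-2 and 5102 to 5437 in End-stage dogs. Their median difference from Day-0 was -0.12, -0.15, -0.40 and -0.61 in the 4 paced groups in order of time, and 0 of the 5 passed; their part in the target values was not tested. The 2 tested BMP targets, ID3 and the iron hormone HAMP, differed by 0.10 and -0.27 for the paced mean (adjusted p = 0.921 and 0.811). HAMP was dim, with a mean log2 signal of 4.94 against 10.90 for ID3, and so were BMP5 (5.07) and SMAD5 (5.28) above.

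**Figure D5:**
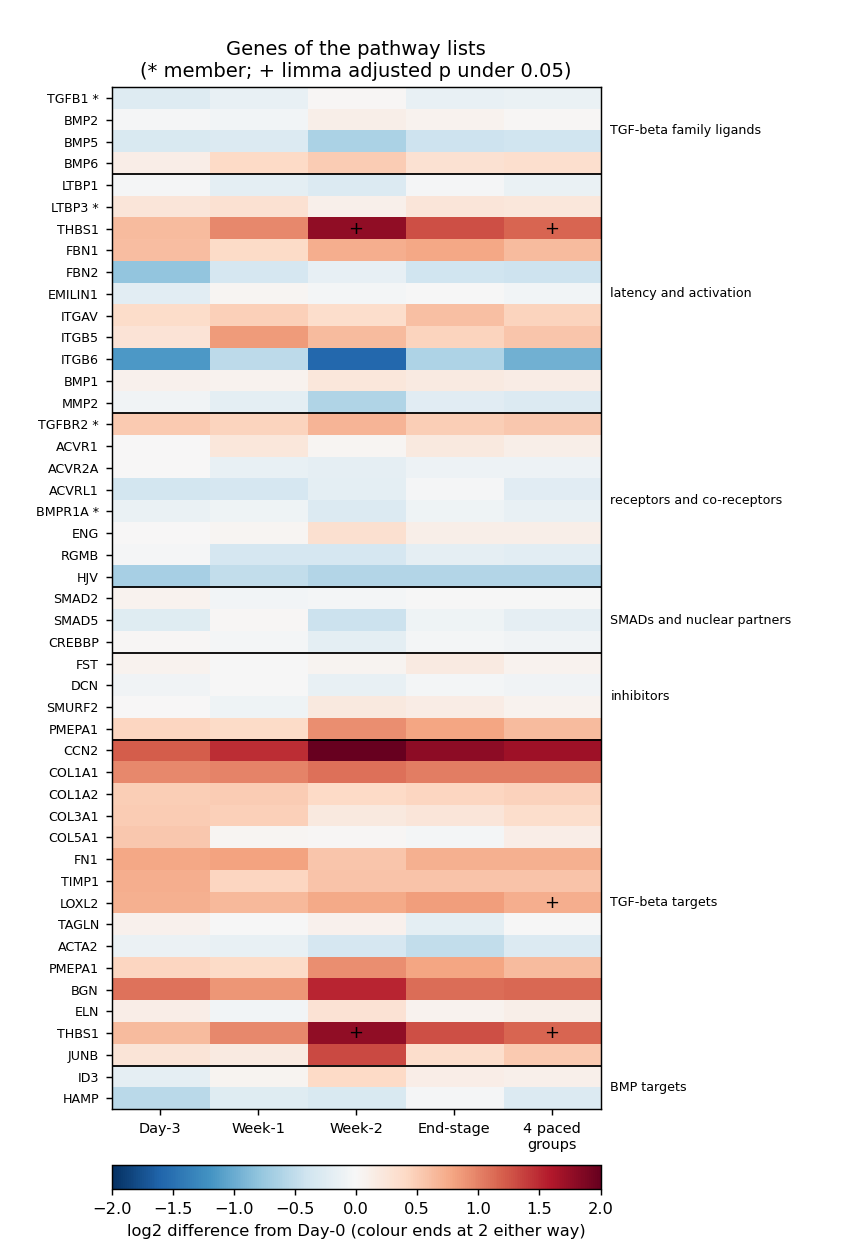
Log2 difference of each paced group and of the 4 paced groups together from Day-0 (columns, colour scale ending at 2 in both directions) for the tested genes of the pathway lists (rows, grouped by role); a star marks the 4 members and a plus sign an adjusted p under 0.05. Plus signs stand at THBS1 for Week-2 and for the paced mean and at LOXL2 for the paced mean; THBS1 and PMEPA1 appear in 2 lists.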

How the data were processed

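Left ventricular RNA of 15 dogs (45 arrays, 3 RNA isolations per dog) was measured on single-colour Affymetrix arrays. Per the submitters' processing notes, GCOS 1.4 and MAS5 computed the signals; the values deposited by the authors are MAS5 signal intensity on a linear scale, and each array had been scaled, to a trimmed mean of 150.02 to 150.026. A genome build is not given in the sources used here. Arrays have no read depth; precision is limited by the number of dogs. Symbols came from the annotation of the array, updated by gene ID through the RefSeq gene table of UU_Cfam_GSD_1.0, which held 10046 of the 10549 probe sets with 1 symbol; 138 had several symbols and 13149 had none.

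After removal of 77 control probe sets, signals were log2 transformed and averaged per dog. The dimmest 40% by mean log2 signal (signal under 22.8) were not tested, leaving 14302. In R 4.3.3, limma 3.58.1 (lmFit, then trended eBayes) estimated the 5 group means from the 15 dogs in a single model, two-sided, with Benjamini-Hochberg adjustment over all 14302 and a threshold of 0.05; adjusted p values in the text come from this fit unless another test is named. All paced groups share the same Day-0 dogs. The procedure was tested on simulated data.

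The members and gene lists were chosen with earlier results of these data known. Named genes were all member probe sets; from each pathway list, every gene that passed in any comparison and up to 4 further genes with the smallest F test p; and for each member the 5 probe sets with the highest and the 3 with the lowest Pearson r. Marker correlations (100000 permutations, two-sided), isolation correlations and GAPDH ratios were additions made after seeing the data. Groups and dog numbers came from the labels. Dogs sharing a number deviated together in Week-1 and Day-3 (r 0.167, 0.296 and 0.318). They also did so in End-stage and Week-2 (0.230, 0.242 and 0.102), and every r of both was above 0.1. This pairing comes from the data, not the labels. For dog 1, r was also 0.168 (Week-1 and Day-0), 0.166 (End-stage and Day-0) and 0.161 (Week-2 and Week-1). It was 0.029 for dog 1 of Day-3 and Day-0 and 0.045 for dog 1 of Week-2 and Day-0. The lowest r was -0.085, for dog 3 of Day-3 and Day-0. Alternatives covered normalization, filter, offset, variance model, unit of replication, replicate block and left-out dogs or isolations.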

Additional observations from a re-analysis of the deposited data

How the results depend on the processing

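Over 28 alternatives, 758 of 790 member differences kept their sign and their side of the threshold, 2 passed it and 30 changed sign; none of those 30 had passed. The 2 came from the fit of all 45 single arrays in which arrays of a dog were correlated: 1 member probe set rather than 0 passed at Week-2 and for the paced mean (TGFBR2 1584292_at, adjusted p = 0.00916 and 0.00645). That fit called 483 probe sets at Week-2 and 701 for the paced mean, against 12 and 43 with dog means.

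The differences that changed sign were these. TGFB1, Week-2 minus Day-0, was -0.061 with median centring, -0.160 without isolation 1, -0.027 without isolation 3 and -0.115 to 0.123 with 1 dog left out. Without isolation 1 TGFB1 was also -0.013 for Week-2 minus Week-1 and 0.080 for End-stage minus Week-2. LTBP3, with 1 dog left out, was -0.093 to 0.242 for Week-2 minus Day-0 and -0.097 to 0.211 for Week-1 minus Day-3, the last being -0.015 without isolation 2. TGFBR2 1584292_at, Week-1 minus Day-3, was 0.016 with median centring and -0.341 to 0.197 with 1 dog left out, and its Week-2 minus Week-1 was -0.046 to 0.492 with 1 dog left out. TGFBR2 1584308_at, End-stage minus Day-0, was -0.033 without Week-1 dog 1 and End-stage dog 1, and -0.033 to 0.613 with 1 dog left out. With 1 dog left out it was -0.338 to 0.267 for Week-1 minus Day-3, -0.397 to 0.245 for Week-2 minus Week-1 and -0.447 to 0.199 for End-stage minus Week-2. For Week-2 minus Week-1 it was 0.016 with quantile normalization, 0.057 without isolation 1 and 0.143 without Week-1 dog 1 and End-stage dog 1. BMPR1A, Week-1 minus Day-3, was -0.017 without isolation 2 and -0.0076 to 0.131 with 1 dog left out. The cause was not tested. Median centring shifted all probe sets alike, by -0.123 for Week-2 minus Week-1 and 0.132 for End-stage minus Week-2, and by under 0.1 elsewhere. With the dimmest 60% of probe sets left out, 1 gene of latency and activation rather than 0 passed at Week-1 and 2 rather than 1 for the paced mean.

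With the dog number as a replicate block, 0 member probe sets passed in every comparison, the 2 paired ones included, and TGFBR2 1584292_at had an adjusted p of 0.258 at Week-2 and 0.223 for the paced mean. Over all probe sets the block gave 88 calls at Week-2, 17 at Week-1 and 219 for the paced mean, against 12, 4 and 43 without it. With 3 dogs a group, a log2 difference of 0.5 was recovered for 14% of simulated probe sets in the paced mean. That share is over probe sets of all spreads, with a typical SE of 0.173 in the paced mean. The SE of the members ran from 0.094 for BMPR1A and 0.119 for TGFB1 to 0.286 for TGFBR2 1584308_at, so the share does not hold for each member.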
